A study of Homo sapiens with 10 samples.

Results

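A group of 58 genes of human chromosome 21 was followed in MV4-11 cells with and without a knockout of the transcription factor IRF8. The genes were taken by symbol from the table of normalized counts per gene, which holds 19590 genes, and all 58 were found in it. They run along the long arm of the chromosome from SAMSN1 and NRIP1 to DIP2A and PRMT2, and RUNX1 is not among them. They were chosen by their place on chromosome 21 after the knockout over control log2 ratios of the chromosome were known, so these ratios are given below as a description, without p-values. MV4-11 is an established cell line of acute myeloid leukemia (AML) of the monocytic type that carries an internal duplication in FLT3. The control cells were infected with the control vector. The IRF8 KO cells are clones made with lentiviral CRISPR/Cas9, selected with puromycin and grown out by limiting dilution. Each group has 4 RNA-Seq libraries, and the labels do not say which clone or culture a library came from, so p-values measure only the spread between these libraries, which may be technical.

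Chromosome 21 is the smallest human autosome and the one gained in Down syndrome, in which its genes are expressed above the usual level and the risk of myeloid leukemia is raised. It carries a cluster of receptor genes for interferons and interleukin-10. Type I interferons bind a receptor made of IFNAR1 and IFNAR2, interferon gamma binds IFNGR1 and IFNGR2, and IL10RB is the shared accessory chain for interleukin-10 and related cytokines. These receptors pass the signal through JAK1, TYK2 or JAK2 to STAT proteins, which act on interferon-responsive genes together with factors of the IRF family. Most other genes of the group serve general functions of the cell, such as splicing, ribosome assembly, protein turnover and metabolism.

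Between 39560072 and 65519047 reads fell on genes in each library, with the fewest in knockout replicate 3. A normalized count is a read count divided by a size factor of the library, and 1 read was worth between 0.804 and 1.35 normalized counts. IRF8 itself had 36891, 15192, 43016 and 22535 normalized counts in control replicates 1 to 4 and 6377, 2401, 12903 and 7819.7 in knockout replicates 1 to 4. IRF8 mRNA was lower in the knockout by a log2 ratio of -2.11 (standard error 0.51, limma adjusted p = 0.022), but was present in all 4 knockout libraries. The paper reports that IRF8 protein was absent from its knockout clones by Western blot, which mRNA counts do not measure. The adjusted p of IRF8 mRNA rose to 0.058, 0.057 and 0.053 without control replicate 1, control replicate 3 or knockout replicate 1. Of 9 markers of monocytic AML cells, all 9 had over 100 normalized counts in every library, but their levels did not stay alike. MPO, a granule enzyme of myeloid precursors, rose 17.4-fold (limma adjusted p = 9.9e-06) and PTPRC, which encodes CD45, 2.37-fold (limma adjusted p = 0.025), and MEIS1 fell to 68.6% of the control (limma adjusted p = 0.029). The mean of LYZ was 10.5 times that of the control (limma adjusted p = 0.060). The part of these changes in the values below was not tested. Of 9 markers of other cells, CD3E, HBA1 and EPCAM were among those that stayed below 10 in every library, while CD79A reached 881 and PECAM1 1976. ALB reached 12.2 and COL1A1 29.0. The groups overlapped for CD79A and PECAM1, and their part was not tested either. In bulk RNA, fewer cells that express a gene and less RNA per cell cannot be told apart.

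Most of the chromosome 21 genes were modestly lower in the IRF8 KO libraries, and a few were higher. Of the 58 genes, 56 were entered in the fit, which asked for 10 or more normalized counts on average, while IL10RB and ABCG1 were below this limit. SAMSN1 passed it only through its knockout libraries. The median log2 ratio of the 56 genes was -0.41, which corresponds to 75.3% of the control level, against -0.00094 over all 13110 genes tested. The quartiles were -0.59 and -0.19, a width of 0.39, where the width over all genes tested was 0.61. A ratio between -0.9 and -0.2 was found in 39 of the 56 genes. In the single knockout libraries the median was -0.31, -0.41, -0.41 and -0.45 relative to the control mean for replicates 1 to 4. Below the control mean were 46, 48, 44 and 47 of the 56 genes, and 6532, 6518, 6533 and 6524 of all 13110 genes tested.

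**Figure D1:**
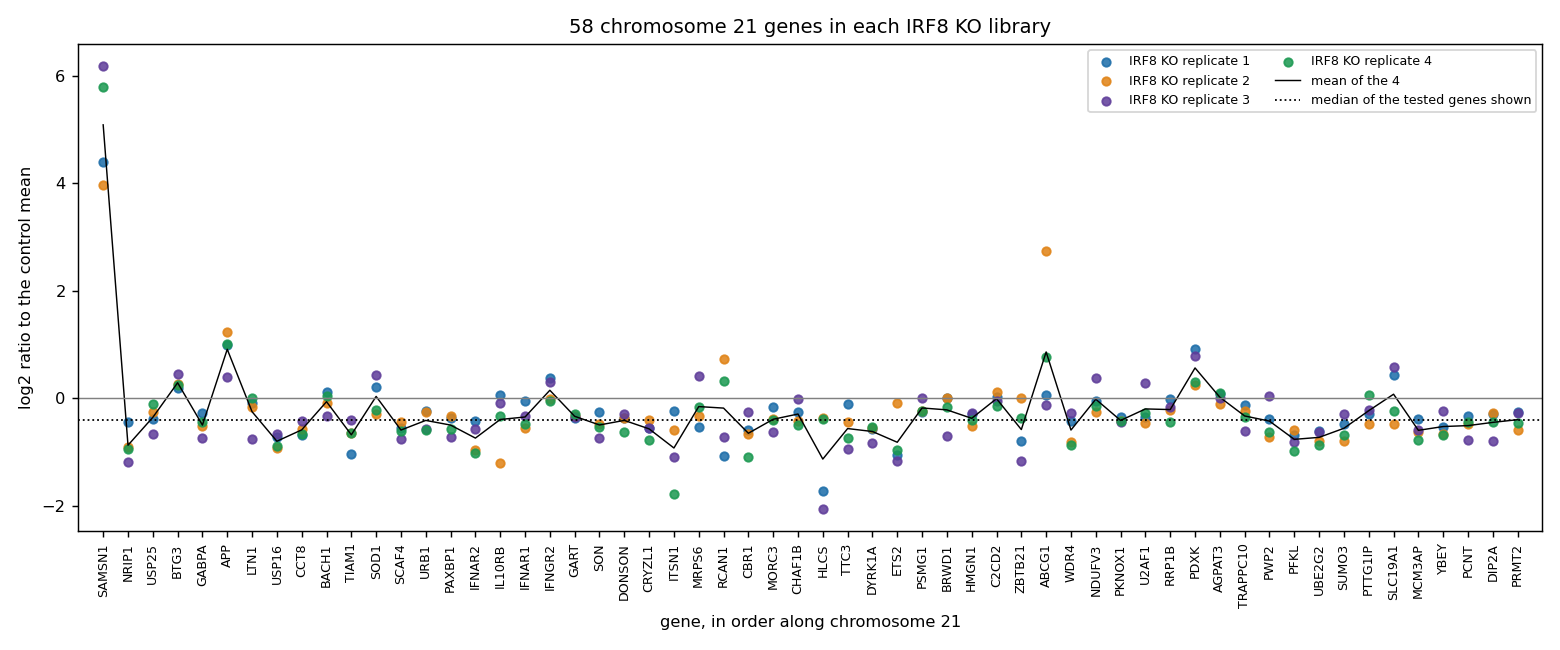
The log2 ratio of each IRF8 KO library to the control mean (vertical axis) is plotted for the 58 genes in their order along chromosome 21 (horizontal axis), with 1 coloured point per knockout library, a line through the mean of the 4 and a dotted line at the median of -0.41 of the tested genes. Most genes sit close to the dotted line, SAMSN1 at the left end stands far above it, and APP and PDXK are also above 0 in all 4 libraries.

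In 36 of the 56 genes all 4 knockout libraries were below the control mean, and in 4 genes all were above it. Over all genes tested, these patterns were found in 25.5% and 25.7%. All knockout values were below all control values in 22 genes, against 13.0% of all genes tested, and above them in 3 genes, against 12.3%. With limma and a Benjamini-Hochberg adjusted p below 0.05 over all genes tested, 16 of the 56 genes were called lower, beside 9.56% of all genes, and 3 were called higher, beside 8.65%. The higher genes were SAMSN1, APP and PDXK, and the call of SAMSN1 carries no weight, since its control mean was under the filter and it could enter the fit only by being higher in the knockout. With the replicate number as a block, 29 genes were called lower, beside 14.6%, and 3 higher, beside 14.2%. Called only with the block were NRIP1, GABPA, IFNAR1, ITSN1, CBR1, MORC3, HLCS, TTC3, ZBTB21, WDR4, YBEY, PCNT and DIP2A. The number called lower was 16 with all libraries and dropped to 6, 5 and 7 without control replicate 1, 3 or 4, beside 6.94%, 7.12% and 6.95% of all genes. It was 10, 9 and 5 without knockout replicate 2, 3 or 4, beside 9.75%, 7.84% and 7.37%. Without control replicate 2 it was 18, beside 8.02%, and without knockout replicate 1 it was 13, beside 7.61%. As the contrast also chose the group, these counts describe it and support no statement about it.

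The receptor genes lie next to each other in the order IFNAR2, IL10RB, IFNAR1 and IFNGR2, and they did not share 1 direction. IFNAR2, the chain of the type I interferon receptor that binds the ligand most tightly and recruits JAK1, had 2115, 1307, 2178 and 1505 normalized counts in control replicates 1 to 4 and 1300.1, 895, 1165 and 861 in knockout replicates 1 to 4. All 4 knockout values were below the lowest control value, and the mean was 59.4% of the control. Its log2 ratio was -0.74 (standard error 0.21), and against the control library of the same replicate number it was -0.70, -0.55, -0.90 and -0.80. IFNAR1, the partner chain that binds TYK2, had 6988, 5813, 7133 and 5348 normalized counts in control replicates 1 to 4 and 6092, 4294, 4999.7 and 4534 in knockout replicates 1 to 4. Knockout replicate 1 was above control replicates 2 and 4, so the groups overlapped, and the mean was 78.8% of the control with a log2 ratio of -0.35 (standard error 0.15). Compared with the control library of the same number, IFNAR1 was lower in all 4 knockout libraries, by log2 values of -0.20, -0.44, -0.51 and -0.24.

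IFNGR2, the signal-transducing chain of the interferon gamma receptor, had 3796, 3988, 4042 and 4122 normalized counts in control replicates 1 to 4 and 5189, 3929, 4898 and 3839.5 in knockout replicates 1 to 4. Knockout replicates 1 and 3 were above every control library and replicates 2 and 4 within their range, so the log2 ratio of 0.15 (standard error 0.13) covers both directions. In RefSeq the span of IFNGR2 overlaps that of the neighbouring gene TMEM50B. IL10RB was near the limit of detection, with 6.44, 11.2, 12.9 and 11.3 normalized counts in control replicates 1 to 4 and 10.7, 3.82, 9.48 and 7.87 in knockout replicates 1 to 4. These values stand for a handful of reads each, and the groups overlapped. The span of IL10RB, like that of IFNAR2, also overlaps the readthrough gene IFNAR2-IL10RB in RefSeq, and how reads shared by these genes were assigned is not stated, so the level of IL10RB is uncertain.

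**Figure D2:**
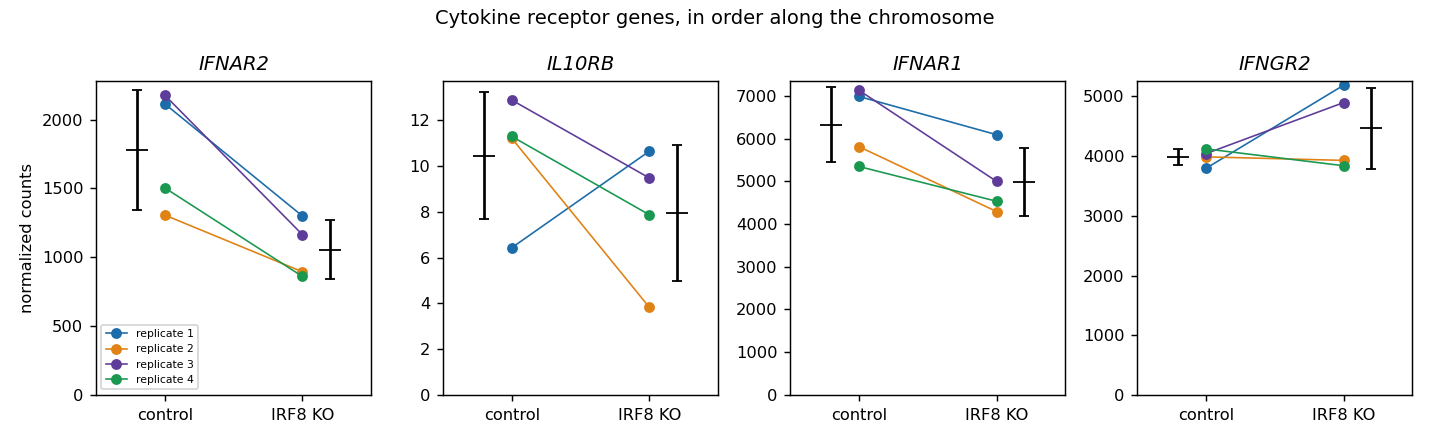
Normalized counts (vertical axes, from 0) of the 4 receptor genes in the control and IRF8 KO libraries, with points of the same replicate number joined by a line and black bars giving the mean ± SD (n = 4). The IFNAR2 groups are apart, those of IFNAR1 and IFNGR2 overlap, and IL10RB lies between 3.82 and 12.9 in all libraries.

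The other genes of the same pathways were taken from a list of 24 receptor chains, kinases, STAT factors and inhibitors outside chromosome 21. Of these, 20 had enough counts to be tested. By limma with the adjusted threshold of 0.05, 1 gene was called lower and 0 were called higher, beside 18.2% of all genes called in either direction. In either direction edgeR called 1, beside 17.8% of all genes, and DESeq2 5, beside 25.9%. By the exact two-sided permutation test without adjustment (p = 0.029), 3 were lower, PTPN6, TYK2 and IL10RA, and 3 higher, among them IFNGR1 and SOCS3. This test reaches that p only where the groups do not overlap, as in 13.0% (lower) and 12.3% (higher) of all genes, so the counts are near the general share. PTPN6 encodes SHP-1, a phosphatase that dampens cytokine receptor signaling. It had 24627, 25995, 23857 and 26009 normalized counts in control replicates 1 to 4 and 13859.8, 17647, 14604 and 11579 in knockout replicates 1 to 4, and fell to 57.4% of the control (log2 ratio -0.82, standard error 0.14, limma adjusted p = 0.0041). When the replicate number was added as a block, 2 genes were called lower, PTPN6 and IL10RA (adjusted p = 0.047), and 2 higher, the feedback inhibitors SOCS1 (adjusted p = 0.0041) and SOCS3 (adjusted p = 0.038), beside 14.6% and 14.2% of all genes. The median log2 ratio of the 20 genes was 0.0060.

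Of the direct partners of the chromosome 21 receptors, IFNGR1 had 4194, 4723, 4101 and 4368 normalized counts in control replicates 1 to 4 and 7386, 5254, 6159 and 4953 in knockout replicates 1 to 4. Every knockout value was above every control value (exact two-sided permutation test, p = 0.029, the smallest that 4 against 4 libraries allow), with a limma adjusted p of 0.068. IL10RA was low, with 39.5 ± 11.5 and 18.5 ± 5.85 normalized counts (SD, n = 4 each) and a limma adjusted p of 0.075. TYK2 had 9986 ± 103 and 8586 ± 770.0 (SD, n = 4 each, limma adjusted p = 0.18). JAK1 and STAT2 overlapped between the groups, with log2 ratios of 0.16 and -0.45 and limma adjusted p-values of 0.57 and 0.49.

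Among the tested genes the lowest log2 ratios belonged to HLCS, ITSN1, NRIP1, ETS2 and USP16. HLCS encodes holocarboxylase synthetase, which attaches biotin to carboxylases. It had 1908, 5894, 1916 and 5655 normalized counts in control replicates 1 to 4 and 1008, 2570.2, 802 and 2559 in knockout replicates 1 to 4. Within each group the values fell into a lower pair, replicates 1 and 3, and a higher pair, replicates 2 and 4, so the groups overlapped although each knockout library held less than the control library of its own number. The log2 ratio was -1.13, with a standard error of 0.53 without and 0.11 with the replicate number as a block. ITSN1, a scaffold protein of endocytosis, had 1085, 672, 1096 and 808 normalized counts in control replicates 1 to 4 and 762, 596, 418 and 262 in knockout replicates 1 to 4. Knockout replicate 4 was lowest and replicate 1 was within the control range, and the log2 ratio was -0.92 (standard error 0.33).

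NRIP1, a corepressor of nuclear receptors, had 16831, 8742, 19661 and 10010.5 normalized counts in control replicates 1 to 4 and 9603, 6926, 5716 and 6796 in knockout replicates 1 to 4. Knockout replicate 1 was above control replicate 2, the only overlap, and the mean was 52.6% of the control (log2 ratio -0.87, standard error 0.28). ETS2, a transcription factor of the ETS family, had 14232, 14425, 12973 and 12792 normalized counts in control replicates 1 to 4 and 6532, 12760.2, 6091 and 6979.6 in knockout replicates 1 to 4. Knockout replicate 2 was just under the lowest control value, while the other 3 knockout libraries were between 6091 and 6980, and the log2 ratio was -0.82 (standard error 0.22). USP16, a deubiquitinase of histone H2A, had 7214, 5387, 7980.0 and 5605 normalized counts in control replicates 1 to 4 and 3946, 3387, 4103 and 3474 in knockout replicates 1 to 4. All 4 knockout libraries were below the controls and close to each other, with a log2 ratio of -0.80 (standard error 0.15).

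Among the tested genes the highest log2 ratios belonged to SAMSN1, APP, PDXK, BTG3 and IFNGR2. SAMSN1, an adaptor protein of blood cells with an SH3 and a SAM domain, was nearly silent in the control, with 8.85, 2.59, 7.52 and 12.2 normalized counts in replicates 1 to 4. In knockout replicates 1 to 4 it had 167, 123, 576 and 442. The mean was 41.9-fold higher, and the log2 ratio was 5.09 (standard error 0.59) on the scale of log2(normalized count + 1), which understates the change of a gene with so few control reads. Knockout replicates 3 and 4 held more than replicates 1 and 2. APP encodes the amyloid precursor protein. It had 11594, 13863, 11194 and 14955 normalized counts in control replicates 1 to 4 and 25572, 30047, 16971 and 25956 in knockout replicates 1 to 4, so every knockout library was above every control library and the mean was 1.91-fold higher (log2 ratio 0.91, standard error 0.19).

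PDXK, the kinase that makes the active form of vitamin B6, had 2896, 2553, 2917 and 2899.9 normalized counts in control replicates 1 to 4 and 5343, 3326, 4839 and 3495 in knockout replicates 1 to 4. The groups were apart and the mean was 1.51-fold higher, more so in knockout replicates 1 and 3 than in 2 and 4. BTG3, a member of an antiproliferative family, had 706, 480.4, 737 and 659 normalized counts in control replicates 1 to 4 and 731, 763, 869 and 761 in knockout replicates 1 to 4. Its groups overlapped, as control replicate 3 was above knockout replicate 1, and the log2 ratio was 0.29 (standard error 0.16). Apart from these 5 genes, the tested genes with a log2 ratio above 0 were SLC19A1 (0.08), SOD1 (0.04) and AGPAT3 (0.02).

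RefSeq promoter windows of 300 bases, 250 before and 50 after the start, were found for 51 of the 58 genes, in 84 windows, as some genes have several starts. They were searched on both strands for 3 forms of the IRF site. The first is the core of the interferon-stimulated response element, GAAA and GAAA with any 2 bases (NN) between them. The others, in which an ETS and an IRF site are combined, are GGAA, NN and GAAA, and GAAA, NN and GGAA. Each form was found in 1 gene of the group, which is 1.19% of its windows, against 3.57%, 2.82% and 2.77% of all 35116 windows. These promoters are shown because they are the matches of the group to the motif class that IRF8 is known to bind, with the matched letters in capitals and overlapping matches joined. All sequences are from RefSeq, build GRCh38.p14, read 5′ to 3′ on the strand of the gene, and stop before the start of transcription. The C2CD2 sequence (chr21:41926704-41926903, minus strand) ends at the start and holds 3 matches to the first form, of which the last 2 overlap. The PDXK sequence (chr21:43718989-43719048, plus strand) holds the reverse complement of the second form, and the NRIP1 sequence (chr21:15066027-15066086, minus strand) that of the third.
C2CD2: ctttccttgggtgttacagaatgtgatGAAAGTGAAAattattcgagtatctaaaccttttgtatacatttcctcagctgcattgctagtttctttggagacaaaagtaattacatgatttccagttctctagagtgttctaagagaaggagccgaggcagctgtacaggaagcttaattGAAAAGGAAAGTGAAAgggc
PDXK: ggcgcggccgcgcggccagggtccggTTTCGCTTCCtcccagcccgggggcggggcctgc
NRIP1: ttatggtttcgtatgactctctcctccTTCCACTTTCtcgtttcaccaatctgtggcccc
C2CD2 had a log2 ratio of -0.01, PDXK was above the control in all 4 knockout libraries and NRIP1 below it in all 4, so the 3 genes did not share a direction. A match is a run of letters and does not show binding.

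The ETS site CCGGAAG, which GABPA is known to bind, was found in 20.2% of the windows of the group and in 10.3% of all windows. Here and for the IRF forms, all windows were not limited to genes expressed in these cells, unlike nearly all of the group. The shares are therefore not from like sets, and no matched set was compared. It was present in 16 of the 51 genes, among them GABPA itself, and USP16, UBE2G2 and HLCS. Those of GABPA (chr21:25734882-25734941, plus strand), USP16 (chr21:29024608-29024667, plus strand), UBE2G2 (chr21:44801821-44801880, minus strand) and HLCS (chr21:36966700-36966799, minus strand) are shown as the matches in the gene of the factor and in 3 genes with lower knockout values, with the site or its reverse complement in capitals. UBE2G2 and HLCS hold 2 sites each. These 3 genes were picked for their direction, and the site was also found in BTG3 and IFNGR2, which had log2 ratios above 0 (0.29 and 0.15).
GABPA: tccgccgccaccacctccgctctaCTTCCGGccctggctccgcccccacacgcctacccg
USP16: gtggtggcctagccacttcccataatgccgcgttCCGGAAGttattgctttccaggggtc
UBE2G2: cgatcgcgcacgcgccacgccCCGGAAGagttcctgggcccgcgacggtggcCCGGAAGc
HLCS: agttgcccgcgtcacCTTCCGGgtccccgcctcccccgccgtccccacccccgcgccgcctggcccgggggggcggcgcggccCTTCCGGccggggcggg
GABPA mRNA had 5245, 3949, 5873 and 4739.7 normalized counts in control replicates 1 to 4 and 4054, 3418, 2921 and 3595 in knockout replicates 1 to 4. The highest knockout value was above the lowest control value by a small margin, and whether the level of GABPA and those of the genes with its site are linked was not tested.

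All 12 genes for transcription and chromatin proteins had a log2 ratio below 0, with a median of -0.40 and quartiles of -0.52 and -0.35. Of these, 5 were called lower, ETS2, PAXBP1, HMGN1, PKNOX1 and PRMT2. Over all genes tested, 50.1% had a ratio below 0 and 9.56% were called lower. As the contrast also chose the group, the counts by function given here and below are descriptions and say nothing about a function. HMGN1, a nucleosome-binding protein whose gene lies in the region studied for Down syndrome leukemia, had 30593, 25741, 30723 and 29208 normalized counts in control replicates 1 to 4 and 23837, 20217, 23981 and 21852 in knockout replicates 1 to 4. Every knockout library was below every control, and against the control of the same number the log2 ratio was -0.36, -0.35, -0.36 and -0.42. PKNOX1, a homeobox partner of the TALE class, had 1536, 1459, 1439 and 1453 normalized counts in the knockout, a very narrow range, against 2010.3, 1709.6, 2323 and 1831 in the control. GABPA, the DNA-binding subunit of GA-binding protein, had a log2 ratio of -0.50 (standard error 0.16), and MORC3 of -0.39 (standard error 0.12). The ratio nearest to 0 was that of BACH1, a heme-regulated repressor, with 4025 ± 706 and 3838 ± 507 normalized counts (SD, n = 4 each). The groups of BACH1 and GABPA overlapped. BRWD1 (-0.21), CHAF1B (-0.29), a subunit of chromatin assembly factor 1, ZBTB21 (-0.58) and NRIP1 also overlapped between the groups.

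All 10 genes for RNA processing and ribosome assembly had a ratio below 0, beside 50.1% of all genes tested, with a median of -0.46. Of the 10, 3 were called lower, SON, SCAF4 and MCM3AP, beside 9.56% of all genes tested. SON, a splicing cofactor of nuclear speckles, had 37140.2, 29842, 35565 and 29157 normalized counts in control replicates 1 to 4 and 27426, 23615, 19760.3 and 22781 in knockout replicates 1 to 4. Its groups were apart, with the lowest value in knockout replicate 3. MCM3AP, which acts in mRNA export, had 12704, 9547, 12131 and 9523 normalized counts in control replicates 1 to 4 and 8338, 7036, 7256 and 6329 in knockout replicates 1 to 4 and was at 66.0% of the control. SCAF4, which binds RNA polymerase II and acts in transcription termination, was at 66.4%. U2AF1, the splice site factor that is recurrently mutated in myeloid neoplasms, had 11741, 8571, 12119 and 7109 normalized counts in control replicates 1 to 4 and 7603, 7041, 11794 and 7968 in knockout replicates 1 to 4. Knockout replicate 3 was near the highest control, the groups overlapped, and the log2 ratio was -0.20 (standard error 0.22). The ribosome assembly genes URB1 (-0.41), PWP2 (-0.42) and RRP1B (-0.21) and the tRNA methylation gene WDR4 (-0.59) overlapped between the groups, as did YBEY (-0.52) and MRPS6 (-0.15) of the mitochondria.

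The 8 genes for protein folding and the ubiquitin system also had ratios below 0 throughout, beside 50.1% of all genes tested, with a median of -0.56. USP16, CCT8, UBE2G2 and SUMO3 were called lower, beside 9.56% of all genes tested. CCT8, a subunit of the cytosolic chaperonin, had 49764, 46930.2, 50051 and 51403 normalized counts in control replicates 1 to 4 and 30973, 33392, 36808 and 31101 in knockout replicates 1 to 4. The groups were apart, at 66.8% of the control. UBE2G2, a ubiquitin-conjugating enzyme of endoplasmic reticulum quality control, had 12149, 8156, 11667 and 7604 normalized counts in control replicates 1 to 4 and 6337, 5568, 6316 and 5279 in knockout replicates 1 to 4. SUMO3, a ubiquitin-like modifier, had 13059, 9489.9, 13284 and 10417 normalized counts in control replicates 1 to 4 and 8273, 6616, 9334 and 7176 in knockout replicates 1 to 4. Both had higher values in replicates 1 and 3 than in 2 and 4 in each group, and both were lower in each knockout library than in the control of its number. For TTC3, a ubiquitin ligase, the groups were also apart, with a log2 ratio of -0.56 (standard error 0.18). USP25 (-0.35), LTN1 (-0.25), the ligase of ribosome quality control, and the proteasome assembly factor PSMG1 (-0.18) overlapped between the groups.

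Metabolic and transport genes went both ways. Of 11 genes, 10 were tested, with 6 below 0 and a median of -0.17. Over all genes tested, 50.1% were below 0 and 9.56% were called lower. PFKL, the liver-type phosphofructokinase of glycolysis, had 18846, 15624, 19540.4 and 17383 normalized counts in control replicates 1 to 4 and 11154, 11861, 10110.4 and 9032 in knockout replicates 1 to 4. Its groups were apart with a log2 ratio of -0.76 (standard error 0.13), and it was called lower, as was CRYZL1 with -0.57 (standard error 0.16). GART, an enzyme of purine synthesis, had 12225, 12639, 12477 and 12939 normalized counts in the knockout and 17519, 13394, 17089 and 15672 in the control. The knockout values were all lower and differed by only 0.08 on the log2 scale, with a log2 ratio of -0.33 (standard error 0.11). SOD1, the cytosolic superoxide dismutase, had 14571, 6206, 15120.3 and 9165 normalized counts in control replicates 1 to 4 and 12269, 8630.1, 14284 and 9164 in knockout replicates 1 to 4, and in both groups replicates 1 and 3 were above 2 and 4, with a log2 ratio of 0.04 (standard error 0.30). The groups also overlapped for CBR1 (-0.65), NDUFV3 (-0.02), AGPAT3 and SLC19A1. ABCG1, a cholesterol exporter, was at 0.804, 8.63, 0 and 14.1 in the control and 3.20, 25.8, 2.71 and 5.90 in the knockout, too few reads for a comparison.

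Among the 13 genes for signaling, trafficking and cell division, 10 had a ratio below 0, beside 50.1% of all genes tested, with a median of -0.33. Only DYRK1A was called lower, beside 9.56% of all genes tested. DYRK1A, a kinase that acts in cell cycle exit and in NFAT signaling, had 5322, 6173, 5696 and 5565 normalized counts in control replicates 1 to 4 and 3848, 3858, 3215 and 3952 in knockout replicates 1 to 4. The groups were apart, at 65.4% of the control. They were also apart for the centrosome protein gene PCNT, with a log2 ratio of -0.51 (standard error 0.15), for DIP2A, with -0.45 (standard error 0.14), and for TRAPPC10, a subunit of a vesicle tethering complex, with -0.33 (standard error 0.13). TIAM1, an activator of the GTPase RAC1, had 1283, 708, 1229 and 765 normalized counts in control replicates 1 to 4 and 471, 617, 731 and 613 in knockout replicates 1 to 4. Knockout replicate 3 was just above control replicate 2, and the log2 ratio was -0.68 (standard error 0.24). DONSON (-0.41), a replication fork protein, PTTG1IP (-0.23), C2CD2 (-0.01) and RCAN1 (-0.18) overlapped between the groups.

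Along the chromosome, every run of 10 consecutive genes of the 58 had a median below 0 in each knockout library. The runs overlap and most of the 58 genes were below 0, so this was largely fixed by the choice of the group. They also leave out the other tested genes of the chromosome that lie between. Over the 4 libraries together the medians of these 49 runs were between -0.59 and -0.11. The lowest run, from ITSN1 to ETS2, had medians of -0.55, -0.39, -0.77 and -0.51 in knockout replicates 1 to 4. The highest run, from C2CD2 to AGPAT3, had -0.03, -0.16, -0.08 and -0.21. The run from SAMSN1 to BACH1 at one end had a median of -0.30 and the run from PFKL to PRMT2 at the other -0.52. For neighbouring genes the median absolute difference in log2 ratio was 0.35, and over all pairs of tested genes 0.32. Spearman's rho between the log2 ratio and the order along the chromosome was -0.04 over the 56 genes, which share their libraries. With the span of the gene it was -0.0033 and with the control level -0.13. In RefSeq, 11 of the 58 genes overlap another coding gene, among them GABPA, URB1, HLCS, SLC19A1 and PCNT, and their counts are uncertain to that extent. The median was -0.45 for the 10 of these that were tested and -0.40 for the other 46.

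In many genes replicates 1 and 3 differed from replicates 2 and 4. Of the 56 tested genes, control replicates 1 and 3 were both above replicates 2 and 4 in 36 and both below them in 10, where 39.2% and 42.0% of all genes tested showed these orders. The same order was found in both groups for 16 and 5 genes, beside 19.3% and 18.9% of all genes tested. Their sum was close to the general share, but the 2 orders were not balanced as they were over all genes. The chromosome 21 genes leaned to higher values in replicates 1 and 3. Over the 56 genes the control medians relative to the control mean were 0.15, -0.18, 0.14 and -0.09 for replicates 1 to 4. Over all genes tested they were -0.009, 0.008, -0.008 and 0.018. RCAN1, an inhibitor of calcineurin, had 2021, 3569, 1871 and 3334 normalized counts in control replicates 1 to 4 and 1229.8, 4307, 1580.3 and 3254 in knockout replicates 1 to 4. Its knockout range was 1.81 on the log2 scale, the widest after SAMSN1 among the tested genes, and the log2 ratio of -0.18 (standard error 0.41) was between -0.49 and 0.12 with 1 library left out. SLC19A1, the reduced folate carrier, had 7067, 2841, 6617 and 3259 normalized counts in control replicates 1 to 4 and 6136, 3291, 6819.7 and 3898 in knockout replicates 1 to 4. Its replicates 1 and 3 were higher than 2 and 4 in both groups, and the log2 ratio was 0.08 (standard error 0.36). ZBTB21, a zinc finger factor, showed the opposite order with 1357, 2418, 1377 and 2424 normalized counts in control replicates 1 to 4 and 1055, 1833, 806 and 1405 in knockout replicates 1 to 4. Each of its knockout libraries was below the control library of the same number.

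**Figure D3:**
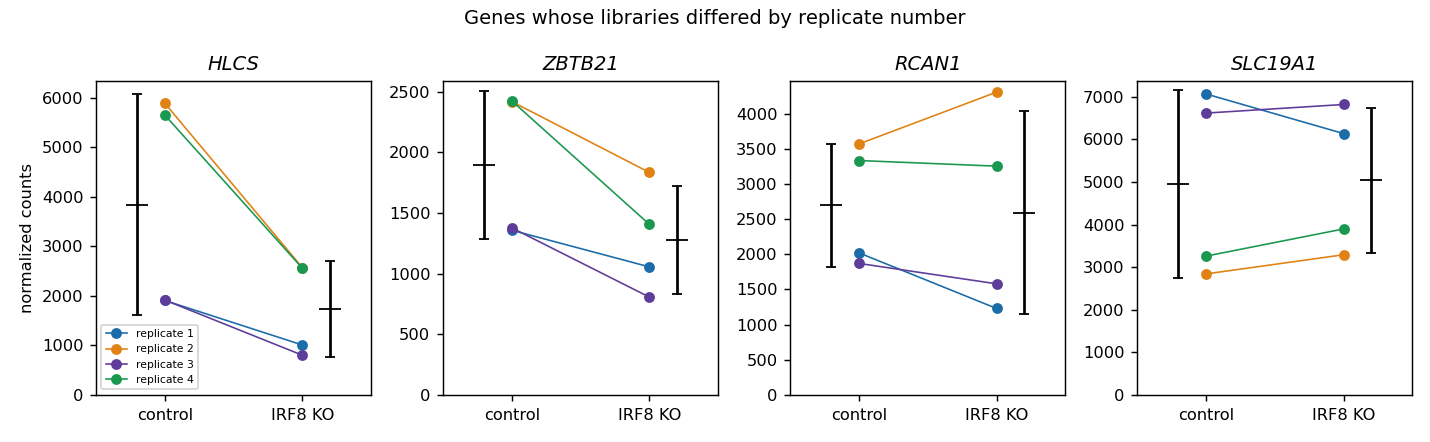
Normalized counts (vertical axes, from 0) of HLCS, ZBTB21, RCAN1 and SLC19A1 in the control and IRF8 KO libraries, with libraries of the same replicate number joined by a coloured line and black bars giving the mean ± SD (n = 4). HLCS and ZBTB21 are lower in the knockout within every replicate number, while the SLC19A1 lines stay nearly level within a lower and a higher pair.

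The spread of a gene depended on which control it was set against. For HLCS the log2 ratios to the control mean were -1.72, -0.37, -2.05 and -0.38 in knockout replicates 1 to 4, with an SD of 0.883. Against the control of the same number they were -0.92, -1.20, -1.26 and -1.14, with an SD of 0.147. IFNAR2, IFNAR1, ZBTB21, SLC19A1, SUMO3 and HMGN1 also had a smaller SD against the same-numbered control. This was so for 21 of the 56 genes, and the median SD over the 56 was 0.22 against the control mean and 0.26 against the same-numbered control. For NRIP1 and TIAM1 the SD was larger, at 0.637 and 0.563 in place of 0.312 and 0.262.

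Knockout replicate 3 differed from the other knockout libraries by the span of the genes, the distance from first to last base in RefSeq. In the 13 tested genes of 100 kb or longer, its median log2 ratio was -0.77, against -0.29, -0.37 and -0.44 in knockout replicates 1, 2 and 4, and it was the lowest of the 4 in 9 of them. In the 18 genes under 30 kb its median was -0.26, against -0.38, -0.50 and -0.54, and it was the lowest in 2. Spearman's rho between the span and the difference of replicate 3 from the mean of the other knockout libraries was -0.49 over the 56 genes and -0.32 over the 12992 tested genes with a known span, which all share these libraries. The 2276 tested genes of 100 kb or longer had medians of 0.04, 0.08, -0.19 and 0.09 in knockout replicates 1 to 4. Knockout replicate 3 was also the library with the fewest reads, and the part of depth in this was not tested. TTC3 had 13076, 10391, 7314 and 8428 normalized counts in knockout replicates 1 to 4. BRWD1 had 3847, 3892, 2366 and 3437, and LTN1 5231, 4992, 3296 and 5615. Each of these genes was lowest in replicate 3. Without knockout replicate 3 the median log2 ratio of the group was -0.39.

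**Figure D4:**
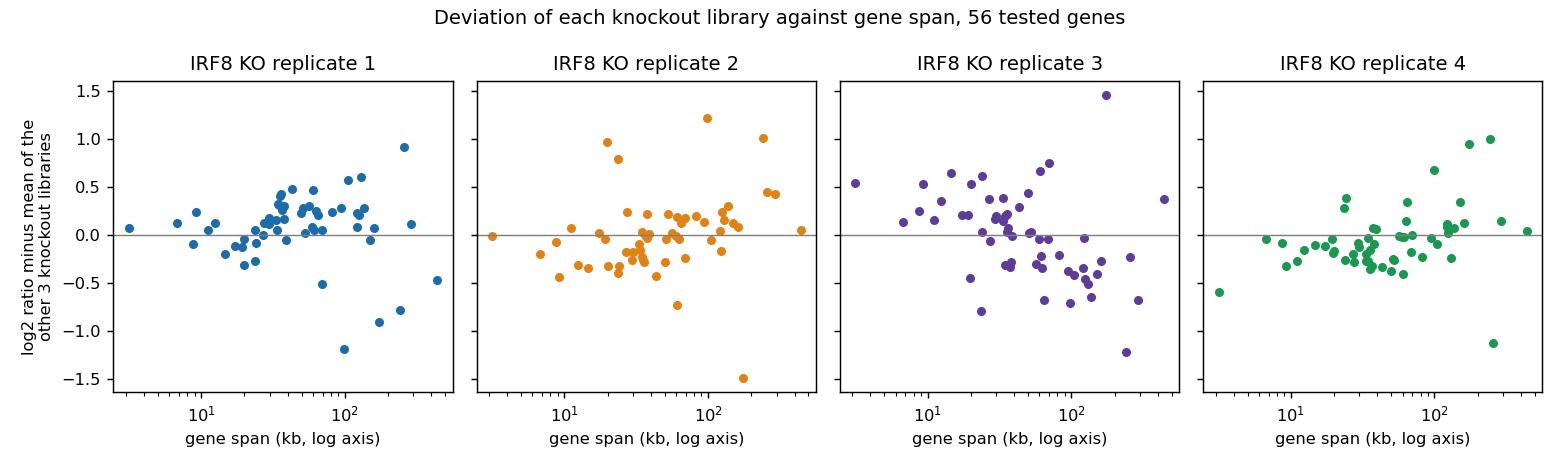
For each IRF8 KO library, the log2 ratio minus the mean of the other 3 knockout libraries (vertical axis) is plotted against the gene span in kb (horizontal log axis) for the 56 tested genes, 1 point per gene. The points of knockout replicate 3 slope down towards long genes (Spearman's rho -0.49), while rho was 0.16 for replicate 1 and 0.42 for each of replicates 2 and 4. As each library is set against the other 3, the differences of a gene cancel out over the libraries. A downward slope in replicate 3 thus brings upward slopes elsewhere, which are not separate traits of those libraries.

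The remaining 69 tested genes of chromosome 21 had a median log2 ratio of -0.16 with quartiles of -0.62 and 0.23. Among genes averaging 300 or more normalized counts, the median was -0.24 for 43 of these and -0.41 for 55 genes of the group. The 351 tested genes of chromosome 20 had medians of -0.93, -0.91, -0.91 and -0.95 in knockout replicates 1 to 4. The genes of chromosome 18 had medians of 0.13 and 0.11 in knockout replicates 1 and 2 and of -0.59 and -0.57 in replicates 3 and 4. The 4 knockout medians of the chromosome 21 group did not divide in this way. Against the control of the same number they were -0.45, -0.20, -0.59 and -0.34 for replicates 1 to 4, lower in replicates 1 and 3 than in 2 and 4. These differences between chromosomes are descriptions without a test.

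**Figure D5:**
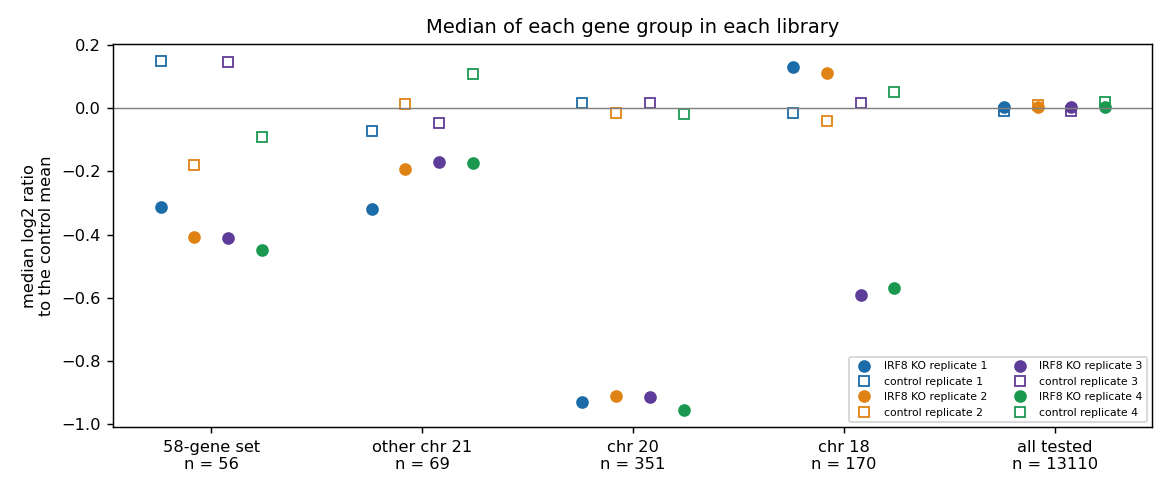
The median log2 ratio to the control mean (vertical axis) is shown for each gene group (horizontal axis, n is the number of tested genes) in each library, with filled circles for the 4 IRF8 KO libraries and open squares for the 4 control libraries. The knockout medians of the chromosome 21 group lie between -0.45 and -0.31, between those of chromosome 20 and of all genes tested, while chromosome 18 splits by library.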

How the data were processed

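RNA-Seq libraries of 4 control and 4 IRF8 KO replicates were used. For the signal they deposited, the authors mapped reads with RNA-Star, assigned them to GENCODE genes by featureCounts and divided each count by the DESeq2 size factor of its library. The labels name the builds hg19 and hg38 without their role, and neither they nor the methods state whether the counting used strand. The authors' fold changes and p-values, in a second deposited table, were not used. Columns named wild type were read as control libraries, number by number. Division by the value of 1 read returned whole numbers in 100% of cases (tolerance 0.01 reads).

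Log2(normalized count + 1) of the 13110 genes averaging 10 or more was fitted with limma 3.58.1 (R 4.3.3, trended and robust prior, Benjamini-Hochberg adjustment), and the procedure was tested on simulated data. At an adjusted p below 0.05 limma called 2387 genes, and on the recovered reads edgeR 4.0.16 called 2333 and DESeq2 1.42.0 called 3402. Alternatives covered the pseudocount, the filter, the scaling, the test, the replicate number as a block and leaving out each library. Over genes, the departures from the group mean correlated between control and knockout of 1 number at 0.37, 0.48, 0.45 and 0.50 for numbers 1 to 4, so the block was read as a pairing. What a number marks is not stated, and knockout replicates 1 and 3 correlated better with control replicates 3 and 1 (0.41 and 0.47).

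RefSeq (GRCh38.p14) placed 12992 of the 13110 genes on a chromosome by symbol. The members and lists were chosen with earlier results of these data known. Values in every library were to be given for the receptors, the 5 lowest and 5 highest genes and the 3 with the widest knockout range, all among tested genes. Further members were named with values already seen, and a planned ranking by level per kb was left out because transcript lengths were not used here. The ChIP-Seq samples were not analysed here. No promoter entry was matched for DONSON, IFNAR2, PAXBP1, SCAF4, SOD1, RRP1B and ABCG1. Some genes of the marker and pathway lists are not reported here.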

Additional observations from a re-analysis of the deposited data

Results flagged for a closer look

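Dixon's test on groups of 4 values marked a library that stood apart in 2 of 42 groups, where chance gives about 1 in 20. ETS2 in knockout replicate 2 had 12760.2 normalized counts, while the other knockout libraries had between 6091 and 6980. PDXK in control replicate 2 had 2553 normalized counts, below the other control libraries at 2896 to 2917.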

How the results depend on the processing

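Over the alternatives that kept all libraries, the median log2 ratio of the chromosome 21 genes was between -0.43 and -0.40, and with 1 library left out between -0.46 and -0.36. Ratios to same-numbered controls, an alternative chosen after seeing the data, give the same value by arithmetic. The mean ratio of a gene is the same either way, so this is no check. The replicate block leaves the ratios unchanged for the same reason. The number of genes called lower was 16, beside 1253 of all 13110 genes tested. It was 12 without the filter, beside 1297 of 17393 genes. With all 13110 genes it was 18 with edgeR, beside 1206, and 21 with upper quartile scaling, beside 1293. It was 22 with quantile normalization, beside 1262, 26 with DESeq2, beside 1723, and 29 with the replicate block, beside 1912. With 1 library left out it was between 5 and 18. The number called higher was between 2 and 3 in all settings. Of the pathway genes outside the chromosome, 1 was called, against 2 with quantile normalization, 5 with DESeq2, 4 with the replicate block and between 1 and 2 with 1 library left out (2 without knockout replicate 1). The log2 ratio of IRF8 was between -2.46 and -1.65 with 1 library left out. Beyond these, the block changed the call of LYZ, whose limma adjusted p went from 0.060 to 0.0021, and no other call reported here. The cause of these differences was not tested. Single genes were followed over the alternatives only for the receptors, the 5 lowest, the 5 highest and the 3 with the widest knockout range. All 235 alternative values of these genes moved by less than the spread between replicates, which is wide for RCAN1 and HLCS. For the block and for leaving out 1 library this was fixed in advance. The block does not change a ratio, and 1 library cannot move the mean of its group by as much as the SD. Those settings therefore do not measure stability. The other chromosome 21 genes were not followed in this way. Counting error limits SAMSN1 in the control, IL10RB and ABCG1.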
